A study of Homo sapiens with 6 samples.

Results

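N6-methyladenosine, m6A, is the most common internal modification of messenger RNA, and the proteins that bind it are called readers. The 9 reader genes described here are the 3 IGF2BP genes, the 5 genes of the YTH domain family and HNRNPA2B1. They were taken by name from the 18268 rows of a deposited expression table, and each had 1 row of its own. In GENCODE 29 they lie on chromosomes 17, 3 and 7 (IGF2BP1, IGF2BP2 and IGF2BP3), 20, 1 and 8 (YTHDF1, YTHDF2 and YTHDF3), 4 and 5 (YTHDC1 and YTHDC2) and 7 (HNRNPA2B1). All libraries came from MIA PaCa-2, a human cell line established from a pancreatic carcinoma and labelled as epithelial. In 3 of them, called KO, the cells were a knockout of LINC00901, a gene for a long non-coding RNA. The other 3, called vector control, came from MIA PaCa-2 cells with the vector. Both groups grew in DMEM with fetal bovine and horse serum, and total RNA was sequenced. Whether the KO cells were 1 clone or a pool, and whether libraries came from separate cultures, is not given in the sources used here, so p-values measure the spread between these libraries, which may be technical.

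IGF2BP proteins bind m6A-marked transcripts through their KH domains and are known for stabilizing them, MYC mRNA among them. The YTH domain holds the methylated base in an aromatic pocket. YTHDF2 passes its targets to the CCR4-NOT deadenylase for decay, YTHDF1 is known for promoting translation, YTHDF3 for working with both, and YTHDC1 for acting on splicing and export in the nucleus. IGF2BP1 and IGF2BP3 are called oncofetal because most adult tissues hold little of them and many tumours express them again.

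The promoters of IGF2BP2, IGF2BP3 and YTHDF2 are shown because IGF2BP2 and YTHDF2 were the tested readers whose KO and vector control values did not overlap, and IGF2BP3 is the expressed paralogue of IGF2BP2. The share without overlap was 25.0% of the tested readers, beside 23.8% of all rows tested for a difference. Each run covers 250 bases before to 50 bases after an annotated start, 5′ to 3′ on the gene's strand, from RefSeq on GRCh38.p14, which is not the build of the authors' alignment. Capitals mark GGGCGG, the GC box, on either strand and CACGTG, the E-box that MYC and other helix-loop-helix factors bind.
IGF2BP2, minus strand, chr3:185824993-185825292: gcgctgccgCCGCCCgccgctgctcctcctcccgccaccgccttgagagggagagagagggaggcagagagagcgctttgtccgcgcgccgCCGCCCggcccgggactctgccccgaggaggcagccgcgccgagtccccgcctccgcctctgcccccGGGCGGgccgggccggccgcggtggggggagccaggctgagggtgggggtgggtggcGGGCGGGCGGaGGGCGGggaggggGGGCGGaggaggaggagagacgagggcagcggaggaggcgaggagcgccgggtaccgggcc
IGF2BP3, minus strand, chr7:23470442-23470741: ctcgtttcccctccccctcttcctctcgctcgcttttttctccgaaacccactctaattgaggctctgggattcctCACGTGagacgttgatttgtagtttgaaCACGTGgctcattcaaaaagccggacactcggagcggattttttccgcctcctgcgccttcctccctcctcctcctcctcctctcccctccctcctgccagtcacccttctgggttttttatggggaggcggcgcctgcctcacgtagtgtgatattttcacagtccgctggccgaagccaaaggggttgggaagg
YTHDF2, plus strand, chr1:28736374-28736673: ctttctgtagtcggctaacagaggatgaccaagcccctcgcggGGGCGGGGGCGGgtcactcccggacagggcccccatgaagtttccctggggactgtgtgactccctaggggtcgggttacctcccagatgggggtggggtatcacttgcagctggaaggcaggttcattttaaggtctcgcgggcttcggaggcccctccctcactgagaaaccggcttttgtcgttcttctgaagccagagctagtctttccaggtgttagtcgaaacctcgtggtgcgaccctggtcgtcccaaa
Of the 9 readers, 7 matched an entry by symbol, and IGF2BP1 and YTHDF3 did not. IGF2BP2 and YTHDF2 each have another annotated start, whose windows are not shown and differ from those printed: the other IGF2BP2 window has 35.0% GC and 0 GGGCGG matches, and the other YTHDF2 window 73.0% GC and 4. The printed IGF2BP2 window held 7 GGGCGG matches, some of them overlapping, and its GC content was 80.7%, against a median of 58.7% over all 35116 promoter windows. The printed YTHDF2 window held 2 such matches at 60.0% GC, and the IGF2BP3 window 0 at 56.3% GC. GGGCGG occurred in 45.0% of all windows. CACGTG occurred 2 times in the IGF2BP3 window, with first bases at -174 and -146 from the start, and in no window of IGF2BP2 or YTHDF2. Among the other readers it occurred in the YTHDF1 window at -211, and 7.26% of all windows held it. A match describes letters only, and no binding was measured.

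Values are FPKM, a fragment count scaled by transcript length and by library size, as the authors computed them, so levels can be set beside each other between genes. Library sums ran from 123107 to 134389 FPKM, with 9153 to 9612 rows at 1 FPKM or above, and the depth in reads is unknown. LINC00901 was named by 0 rows, so the knockout itself was not checked and every direction rests on the labels. Vector control 1 stood apart: across the 9624 tested rows it correlated at r = 0.904 and 0.906 with vector control 2 and 3, and at r = 0.932 with KO 3. KO 1 also stood apart from its group, at r = 0.933 and 0.935 with KO 2 and KO 3, which correlated with each other at r = 0.97. Replication-dependent histone genes took 5.21% to 6.28% of the FPKM sum in KO 2, KO 3 and vector control 1, and 2.83% to 3.29% in KO 1, vector control 2 and vector control 3. Of the 3 tested epithelial markers, KRT19 had the highest log2 fold change at -0.76 and CLDN4 the lowest at -1.60, both with overlapping groups. KRT18, the other one, named after its values were seen, stood at 28.78 to 58.0 FPKM in the KO libraries and 70.41 to 79.42 FPKM in the vector controls, while EPCAM reached at most 0.14 and CDH1 at most 0.02 FPKM in any library. The summed level of the 6 epithelial markers with a row of their own was 65.9 to 83.7 FPKM in KO and 108 to 160 FPKM in vector control libraries, and its part in the reader values was not tested. VIM, the mesenchymal filament gene, stood at 459.52 to 674.8 FPKM in the KO libraries and 544.33 to 626.27 FPKM in the vector controls. Its log2 fold change was -0.12, beside -0.17 for ZEB1, a transcription factor gene of such cells. The other mesenchymal-type markers were low, CDH2 at most 0.06 and FN1 at most 0.72 FPKM in any library, and were not tested. The summed fibroblast markers overlapped, at 68.2 to 96.8 FPKM in KO and 68.9 to 98.9 FPKM in vector control libraries, with COL1A2 the highest at 0.74 (limma adjusted p = 0.119), COL3A1 the lowest at -1.19 (adjusted p = 0.164) and DCN listed at 0. The summed leukocyte markers ran from 1.20 to 1.83 FPKM in the KO libraries and 1.29 to 4.54 FPKM in the vector controls. PTPRC and CD3E were listed at 0 in all libraries, LYZ at 1.20 to 1.83 FPKM in KO and 0 in vector control libraries, and HLA-DRA at 0 in KO and 1.29 to 3.86 FPKM in vector control libraries (limma adjusted p = 0.00799 and 0.0294).

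The readers covered a wide range of levels, with the same gene at each end in every library. HNRNPA2B1, an abundant nuclear RNA-binding protein gene, was the highest of the 9 in every library, and its mean of 46.8 FPKM over the 6 libraries lay above 95.8% of the tested rows. The YTHDF genes followed, with means over the 6 libraries of 18.9 FPKM for YTHDF3, 15.2 for YTHDF2 and 14.5 for YTHDF1. Their order changed from library to library. IGF2BP2 and IGF2BP3 averaged 7.45 and 7.42 FPKM, YTHDC2 5.88 and YTHDC1 5.17, and the library values of these 4 genes overlapped. IGF2BP1 was the lowest of the 9 in every library.

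**Figure D1:**
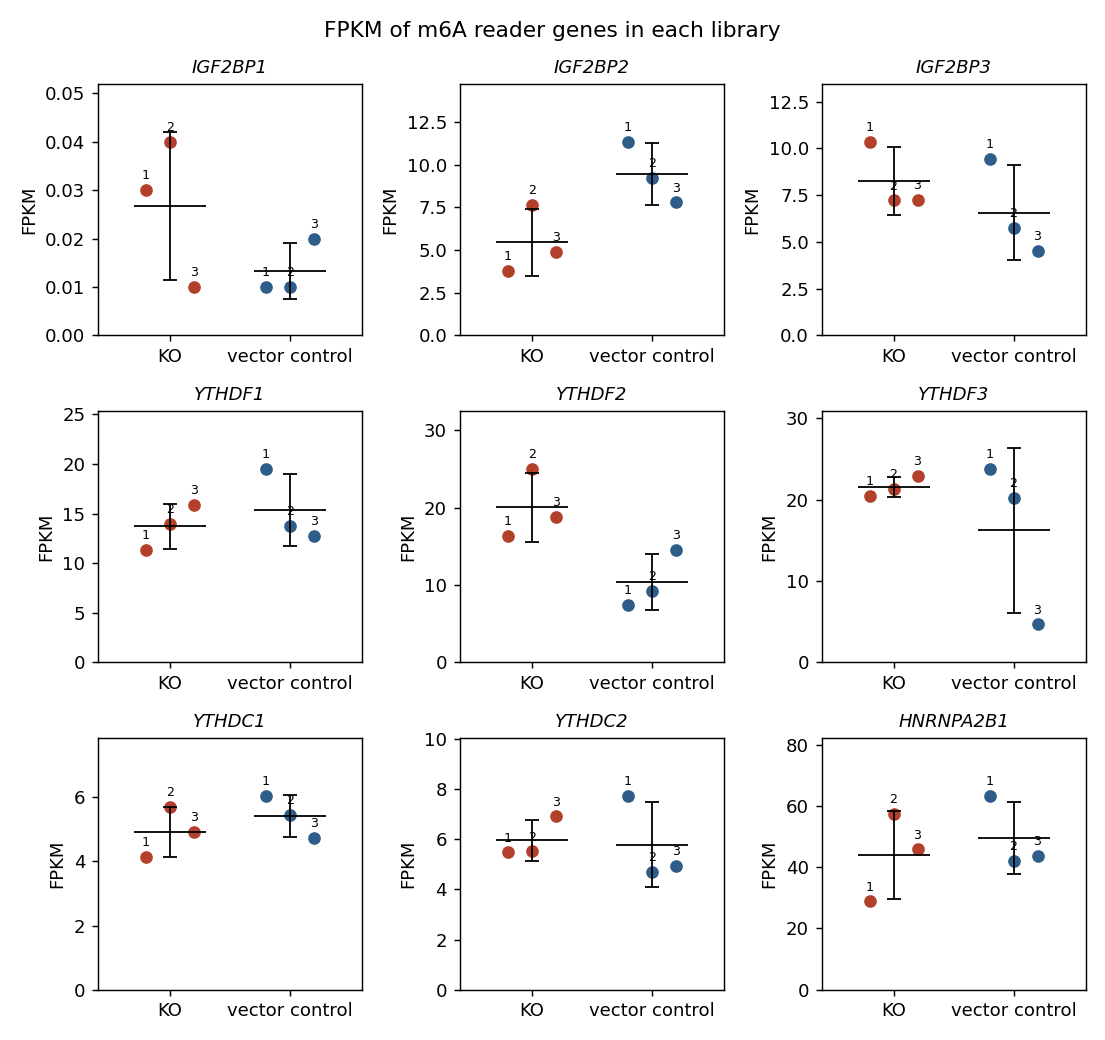
FPKM of each of the 9 reader genes in every library (points numbered by replicate, KO left in red, vector control right in blue), with the group mean and SD as bars, each panel on its own axis from 0. IGF2BP2 lay lower and YTHDF2 higher in all 3 KO libraries than in any vector control, and YTHDF3 stood at 4.67 FPKM in vector control 3 alone. Groups did not overlap in 25.0% of the tested readers and in 23.8% of all tested rows.

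IGF2BP2 was lower and YTHDF2 higher in all 3 KO libraries than in any vector control, but neither difference passed the test. The test was limma on log2(FPKM + 1) over the 9624 rows with at least 1 FPKM in at least 3 libraries, and calls were made below 0.05 after Benjamini-Hochberg adjustment over them. Of the 9 readers 8 were tested, and limma called 0 of them, beside 1.35% of all tested rows (0.509% higher and 0.842% lower in KO). Robust limma with array weights called 1 of the 8, YTHDF2, beside 41.8% of all tested rows. At an unadjusted p below 0.05 there were 2, IGF2BP2 and YTHDF2, against 17.5% of all tested rows. In these 2 of 8 genes the groups did not overlap, a share of 25.0% beside 23.8% of all tested rows. The tested readers were divided evenly, 4 above and 4 below 0, with a median log2 fold change of -0.03, beside 0.08 for all tested rows. In bulk RNA, fewer cells that express a gene and less RNA per cell cannot be told apart.

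IGF2BP2 stood at 3.80, 7.64 and 4.89 FPKM in KO 1 to 3 and at 11.35, 9.23 and 7.79 FPKM in vector control 1 to 3. All KO libraries were below all vector controls, though KO 2 and vector control 3 nearly met. The means were 5.44 ± 1.98 FPKM in KO and 9.46 ± 1.79 FPKM in vector control cells (SD, n = 3 each), with a log2 fold change of -0.73 (SE 0.25, 95% interval -1.32 to -0.14, limma adjusted p = 0.215). Groups that do not overlap in this direction occurred in 8.35% of tested rows. Leaving out 1 library at a time gave -0.96 to -0.54, with adjusted p of 0.176 to 0.485.

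IGF2BP3, the paralogue, stood at 10.36, 7.22 and 7.23 FPKM in KO 1 to 3 and at 9.42, 5.75 and 4.53 FPKM in vector control 1 to 3. The groups overlapped through vector control 1, the second-highest library. The log2 fold change was 0.33 (SE 0.27, 95% interval -0.30 to 0.95, limma adjusted p = 0.568), and it was 0.58 without vector control 1 (adjusted p = 0.104), 0.17 without KO 1 and 0.13 without vector control 3. IGF2BP1, the founding member of the family, was listed at 0.03, 0.04 and 0.01 FPKM in KO 1 to 3 and at 0.01, 0.01 and 0.02 FPKM in vector control 1 to 3. These values are at the last deposited decimal, and the gene was below the filter and not tested.

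IGF2BP2 took a smaller share of the family's transcripts in every KO library than in any vector control. IGF2BP2 made up 26.8%, 51.3% and 40.3% of the summed IGF2BP FPKM in KO 1 to 3, and 54.6%, 61.6% and 63.1% in vector control 1 to 3. IGF2BP3 supplied nearly all of the rest, so it exceeded IGF2BP2 in KO 1 and KO 3 and was below it in KO 2 and every vector control. The ratio of IGF2BP2 to IGF2BP3 was 0.367, 1.06 and 0.676 in KO 1 to 3 and 1.20, 1.61 and 1.72 in vector control 1 to 3. These ratios are a description of 2 genes that were also given singly, and were not tested. The summed level itself overlapped between the groups, at 12.1 to 14.9 FPKM in KO and 12.3 to 20.8 FPKM in vector control libraries.

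**Figure D2:**
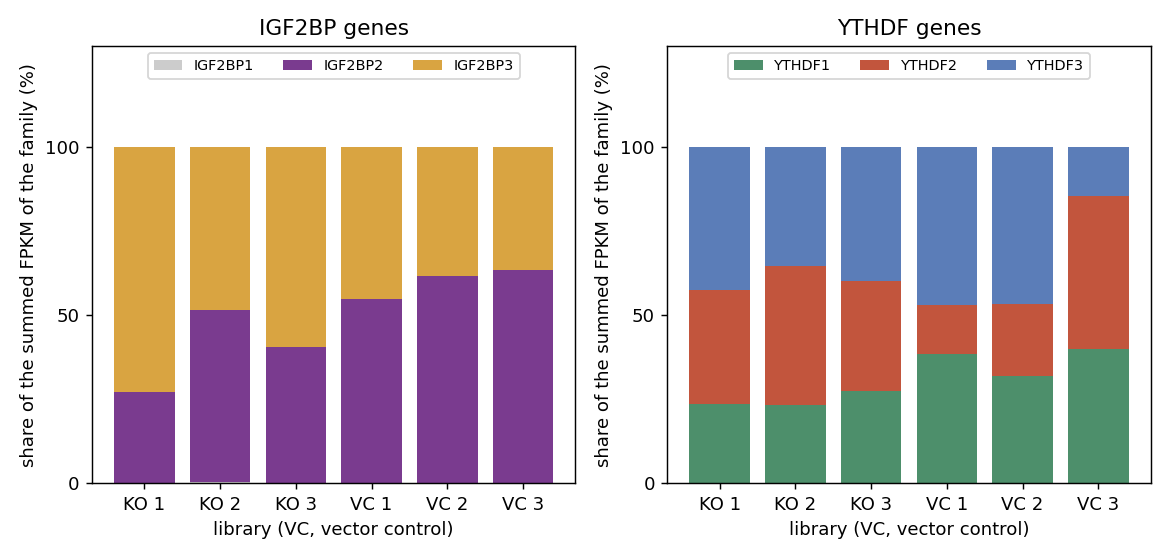
Share of each gene in the summed FPKM of its family, per library, for the IGF2BP genes (left) and the YTHDF genes (right). IGF2BP2 made up 26.8% to 51.3% in the KO libraries and 54.6% to 63.1% in the vector controls, while IGF2BP1 is too low to be seen.

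YTHDF2, the decay-linked reader, stood at 16.30, 24.99 and 18.83 FPKM in KO 1 to 3 and at 7.44, 9.26 and 14.49 FPKM in vector control 1 to 3. All KO libraries were above all vector controls, with vector control 3 the nearest. The means were 20.0 ± 4.47 FPKM in KO and 10.4 ± 3.66 FPKM in vector control cells (SD, n = 3 each), a ratio of 1.93, and the log2 fold change was 0.91 (SE 0.26, 95% interval 0.29 to 1.53, limma adjusted p = 0.164). Groups that do not overlap in this direction occurred in 15.4% of tested rows. Robust limma with array weights called the gene (0.84, adjusted p = 0.0194), in a fit that called 4020 rows, 41.8% of those tested. Adjusted p ran from 0.0194 to 0.433 over the 16 alternatives, and the change from 0.72 to 1.16.

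YTHDF1, the translation-linked paralogue, stood at 11.32, 13.96 and 15.86 FPKM in KO 1 to 3 and at 19.50, 13.79 and 12.72 FPKM in vector control 1 to 3. The groups overlapped, and the log2 fold change was -0.14 (95% interval -0.63 to 0.35, limma adjusted p = 0.769). Without vector control 1, the highest library, it was 0.035. YTHDF2 exceeded YTHDF1 in every KO library, by ratios of 1.44, 1.79 and 1.19 in KO 1 to 3, against 0.382, 0.672 and 1.14 in vector control 1 to 3.

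YTHDF3 stood at 20.44, 21.29 and 22.94 FPKM in KO 1 to 3 and at 23.79, 20.20 and 4.67 FPKM in vector control 1 to 3. A single library decided its value: vector control 3 was 4.33-fold below the lowest of the other 5, which lay close together. The log2 fold change was 0.65 with all libraries (SE 0.52, 95% interval -0.57 to 1.87, limma adjusted p = 0.563) and -0.025 without vector control 3 (adjusted p = 0.978). In that library YTHDF3 made up 14.6% of the summed YTHDF FPKM, against 35.3% to 46.9% in the other 5.

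**Figure D3:**
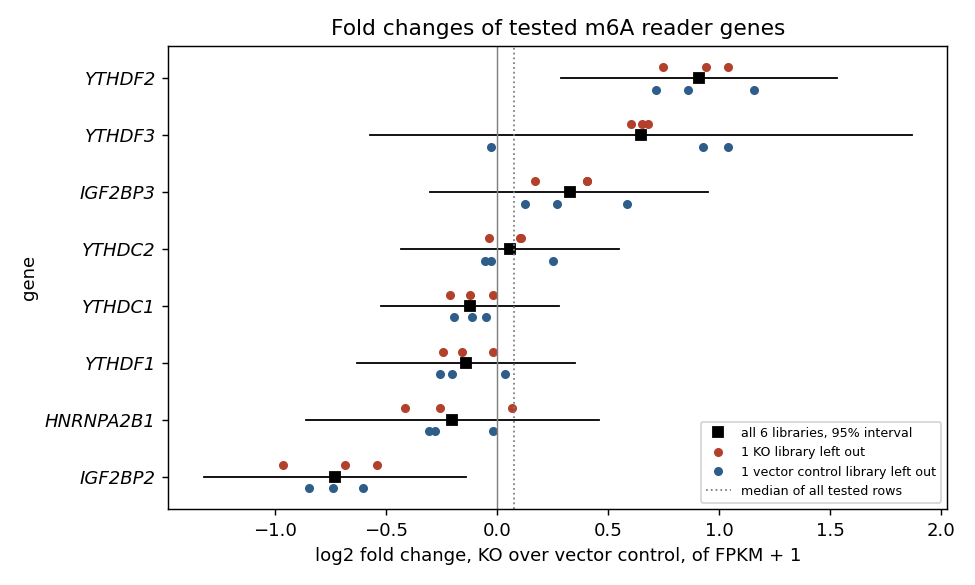
Log2 fold change of FPKM + 1, KO over vector control, for the 8 tested readers: squares with 95% limma intervals use all 6 libraries, red points leave out 1 KO library and blue points 1 vector control library. IGF2BP2 stayed between -0.96 and -0.54 and YTHDF2 between 0.72 and 1.16, whereas YTHDF3 moved to -0.025 without vector control 3.

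For YTHDC1, YTHDC2 and HNRNPA2B1 the groups overlapped. YTHDC1 stood at 4.13, 5.71 and 4.93 FPKM in KO 1 to 3 and at 6.04, 5.45 and 4.74 FPKM in vector control 1 to 3, with a log2 fold change of -0.12 (95% interval -0.52 to 0.28, limma adjusted p = 0.762). Leaving out KO 1 gave -0.018, KO 2 -0.21, vector control 1 -0.047 and vector control 3 -0.19. It had the narrowest range of the 9 genes, 1.46-fold between its highest and lowest library. YTHDC2, an RNA helicase known in mice for its part in meiosis, stood at 5.48, 5.52 and 6.92 FPKM in KO 1 to 3 and at 7.73, 4.71 and 4.94 FPKM in vector control 1 to 3. Its log2 fold change was 0.06 (95% interval -0.43 to 0.55, limma adjusted p = 0.911), and the sign turned after median scaling (-0.021) and quantile normalization (-0.0048). Both intervals reach no further than 0.55 on the log2 scale in either direction.

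HNRNPA2B1, linked to microRNA processing and to splicing of methylated transcripts, stood at 28.83, 57.38 and 45.82 FPKM in KO 1 to 3 and at 63.24, 42.14 and 43.64 FPKM in vector control 1 to 3. Its extremes were KO 1 and vector control 1, and the other 4 libraries lay between them. The log2 fold change was -0.20 (95% interval -0.86 to 0.46, limma adjusted p = 0.752), and 0.069 without KO 1. Of the KO libraries, KO 2 held the most and KO 1 the least of both HNRNPA2B1 and YTHDC1. Of the 8 tested readers 6 (IGF2BP2, YTHDF1, YTHDF3, YTHDC1, YTHDC2 and HNRNPA2B1) were highest in vector control 1, where the histone share was also highest. The share of all tested rows that were highest in that library was not counted, so this is not shown to be particular to the readers. Without that library IGF2BP2 stood at -0.60 (limma adjusted p = 0.176). With the log2 histone share as a covariate, none of the 8 readers was called by limma, and IGF2BP2 stood at -0.81 (adjusted p = 0.0723) and YTHDF2 at 0.93 (adjusted p = 0.101). In GENCODE 29, NFE2L3 and CBX3 overlap HNRNPA2B1 on the other strand, as MALSU1 does IGF2BP3 and IGF2BP2-AS1 does IGF2BP2, and YTHDF1 and YTHDF2 each have 1 pseudogene by name. The use of strand in counting is not given in the sources used here, so reads of such partners cannot be told apart, and reads of the pseudogenes may have been shared.

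The profile nearest to that of IGF2BP2 over the 6 libraries was ZNF346, a zinc finger gene that binds double-stranded RNA, at a root mean square difference of 0.128 in centred log2(FPKM + 1). ZNF280C (0.172), TENT5A (0.181), the joined row ETV5;DGKG (0.182) and CHMP7 (0.182) came next among 9623 candidates, of which 10 lay within 0.2. The nearest row to YTHDF2 was the solute carrier gene SLC16A14 (0.180), which stood at 2.24, 3.40 and 2.72 FPKM in KO 1 to 3 and at 1.09, 1.15 and 1.76 FPKM in vector control 1 to 3. The nearest rows were TAF4B to IGF2BP3 (0.0818), POMP to YTHDF1 (0.0292), CLPTM1 to YTHDC1 (0.0214), TDG to YTHDC2 (0.0373) and SNRPF to HNRNPA2B1 (0.0841). Genes that vary little have many near rows: 1183 lay within 0.2 of YTHDF1 and 1664 within 0.2 of YTHDC2.

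The genes that write, erase or act with the reader proteins showed no called change. In the 7 lists around the readers 79 distinct genes with a row of their own were tested and limma called 0, beside 1.35% of all tested rows. At an unadjusted p below 0.05 there were 11, or 13.9%, below the 17.5% of all tested rows. Groups did not overlap in 11 of the 79, or 13.9%, below the 23.8% of all tested rows. All 15 m6A writers and erasers were tested, with 7 above and 8 below 0 and a median log2 fold change of -0.01. RBM15B, an adaptor of the methyltransferase, was the highest at 0.25, and TRMT112, a methyltransferase cofactor, the lowest at -0.37. METTL3, the catalytic subunit, named after its values were seen, stood at 4.21, 4.68 and 4.88 FPKM in KO 1 to 3 and at 6.01, 6.17 and 6.33 FPKM in vector control 1 to 3, without overlap (-0.36, limma adjusted p = 0.250). It was the 1 writer or eraser without overlap, and 8.35% of all tested rows did not overlap in this direction.

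Among 12 other RNA-binding proteins proposed as readers, 4 were above and 8 below 0, with a median of -0.08. ELAVL1, which encodes the mRNA stabilizer HuR and was also in the list of 8 tested IGF2BP granule partners, was the highest of both. It stood at 19.68, 24.40 and 24.45 FPKM in KO 1 to 3 and at 11.43, 16.52 and 14.22 FPKM in vector control 1 to 3 (log2 fold change 0.67, SE 0.18, limma adjusted p = 0.148). Its KO libraries were all above the vector controls, as in 15.4% of all tested rows. G3BP1, a stress granule nucleator, was the lowest of the first list at -0.41, and YBX1, a cold shock domain protein gene, the lowest of the granule partners. YBX1 stood at 50.26, 58.92 and 60.34 FPKM in KO 1 to 3 and at 83.37, 76.06 and 77.95 FPKM in vector control 1 to 3 (-0.48, adjusted p = 0.167).

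The decay factors that act with YTHDF2 held no called gene, where limma called 1.35% of all tested rows. Of 16 tested deadenylation and decay factors, 11 were above and 5 below 0, with a median of 0.13, and the groups did not overlap in 0 of them, beside 23.8% of all tested rows. CNOT6L, a deadenylase, was the highest at 0.34 and CNOT9, a CCR4-NOT subunit, the lowest at -0.63. Of 10 splicing, export and microRNA-processing factors linked to YTHDC1 and HNRNPA2B1, 7 were above and 3 below 0, with a median of 0.10. SRSF10, a splicing regulator, stood at 5.47, 5.46 and 5.41 FPKM in KO 1 to 3 and at 4.55, 3.59 and 2.69 FPKM in vector control 1 to 3 (0.50, limma adjusted p = 0.233), and NXT1, an export cofactor, was the lowest at -0.52.

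RNAs reported as bound or stabilized by IGF2BP proteins lay mostly below 0, without a called gene, where limma called 1.35% of all tested rows. Of 15 with a tested row of their own, 12 were below and 3 above 0, and the median log2 fold change was -0.37, beside 0.08 for all tested rows. The list was chosen with earlier results of these data known, so these counts are a description only. Groups did not overlap in 1 of the 15 with KO higher and in 2 with KO lower, beside 15.4% and 8.35% of all tested rows. MYC stood at 12.98, 14.23 and 6.34 FPKM in KO 1 to 3 and at 18.20, 39.54 and 17.44 FPKM in vector control 1 to 3. All its KO values were below the vector controls (-1.07, SE 0.39, limma adjusted p = 0.234), and leaving out 1 library at a time gave -1.27 to -0.70. Robust limma with array weights called it (-1.47, adjusted p = 0.0296), as it did 41.8% of all tested rows, and over the 16 alternatives its adjusted p ran from 0.0296 to 0.532. The lowest of the 15 was HK2, the hexokinase 2 gene, at 29.42, 7.74 and 8.21 FPKM in KO 1 to 3 and 27.81, 43.25 and 42.74 FPKM in vector control 1 to 3 (-1.50, adjusted p = 0.197). KO 1 and vector control 1 met there. IGF2, also on the list, had only the joined row IGF2;INS;INS-IGF2 and was left out of this ranking. That row had a lower log2 fold change than HK2, with all KO values below the vector controls, and was not called by limma. Its reads cannot be assigned to IGF2 alone. The lowest adjusted p of the 7 lists belonged to the glucose transporter gene SLC2A1, named after its values were seen, at 5.65, 8.62 and 8.58 FPKM in KO 1 to 3 and 13.90, 20.11 and 20.62 FPKM in vector control 1 to 3 (-1.16, adjusted p = 0.0653). BTRC, the F-box protein gene, went the other way, at 6.07, 6.91 and 6.49 FPKM in KO 1 to 3 and 5.09, 2.83 and 2.95 FPKM in vector control 1 to 3 (0.73, adjusted p = 0.165). ACTB, the first known target of an IGF2BP protein in chick, stood at a log2 fold change of -0.14.

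The oncofetal genes LIN28A, LIN28B and HMGA2 stood at or near 0, as IGF2BP1 did. LIN28A was listed at 0 in every library. LIN28B, the inhibitor of let-7 microRNA maturation, and HMGA2, a let-7 target, were listed at 0 in the 3 KO libraries, vector control 2 and vector control 3, and at 0.01 and 0.03 FPKM in vector control 1. Of the 11 genes of this network 5 had a tested row of their own, and all 5 were above 0 with a median log2 fold change of 0.32. TUT4, a terminal uridylyltransferase gene, was the highest, at 6.69, 5.69 and 5.72 FPKM in KO 1 to 3 and 4.66, 4.11 and 3.63 FPKM in vector control 1 to 3 (0.46, limma adjusted p = 0.213). DICER1, the microRNA-processing ribonuclease, was the lowest of the 5 at 0.07.

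**Figure D4:**
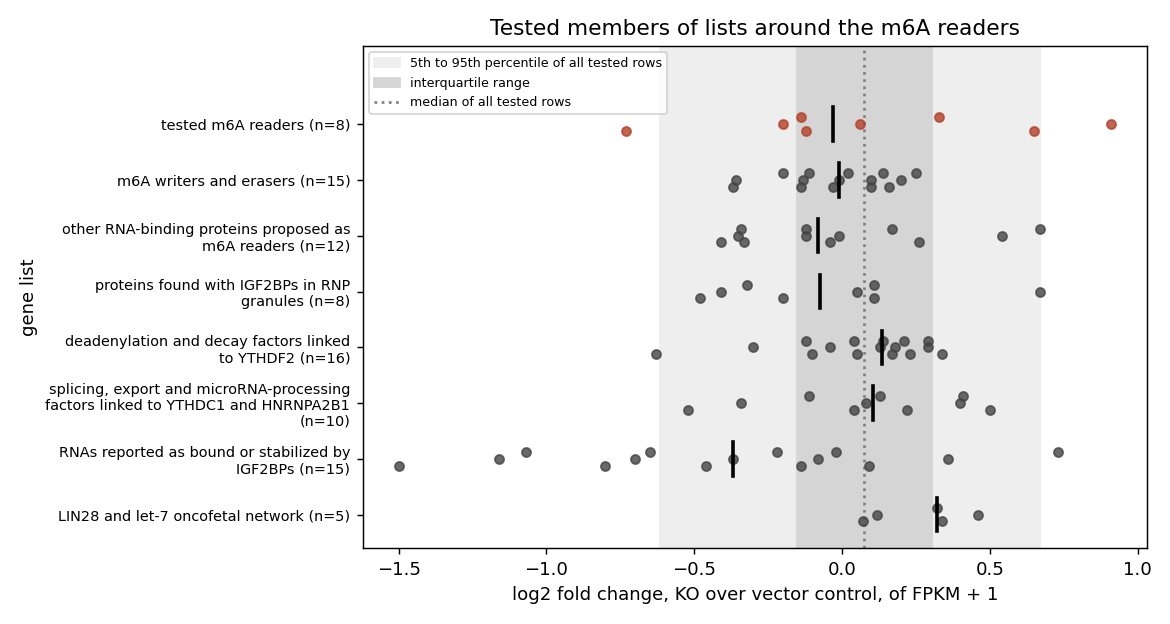
Log2 fold changes of FPKM + 1, KO over vector control, of the tested members of the readers (red) and of 7 lists of associated genes (grey points), with list medians as black bars over the percentile bands of all tested rows. The RNAs reported as IGF2BP-bound have a median of -0.37, and the tested readers a median of -0.03. List genes found only in joined rows, IGF2 among them, are not shown.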

How the data were processed

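Total RNA sequencing of 3 KO and 3 vector control libraries was analysed from a single table. The authors deposited FPKM to 2 decimals, 1 column per library. Per the submitters' processing notes, reads were handled with cutadapt, FastQC and HISAT2 on hg19. Versions, the quantification tool, annotation and strand use are not given in the labels or notes. No whole-read step was found among low values of short genes (best concentration 0.347, where exact multiples give 1), so depth is unknown. Of the rows, 990 join several symbols and were kept as units. List genes found only in such rows were left out of the list counts and rankings.

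Columns were matched to samples by title. limma 3.58.1 in R 4.3.3 (trend, two-sided) was fitted to log2(FPKM + 1), KO against vector control, on rows with at least 1 FPKM in at least 3 libraries. Such fold changes understate changes of low genes. The fitting script was tested on simulated data. The 9 readers, the gene lists and the tests were chosen with earlier results of these data known. From each list, marker lists included, called genes and the tested genes with the highest and lowest fold change are named, with MYC, LIN28B, HMGA2 and the nearest profiles. Alternatives were 2 other pseudocounts (0.1 and 0.5), no filter or 5 FPKM, 2 scalings, 2 variance models, a replicate block, a histone covariate and each library left out.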

Additional observations from a re-analysis of the deposited data

How the results depend on the processing

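The number of rows called by limma, 130 with all libraries, depended on the fit: 241 without a filter, 59 with a filter at 5 FPKM, 4020 with robust limma plus array weights, 7 with a replicate block, 388 with the histone share as a covariate, and 25 (without KO 3) to 1329 (without vector control 1) with 1 library left out. The readers called stayed at 0 of 8, except with robust limma and array weights, which called 1, YTHDF2. Calls of all rows were 49 higher and 81 lower, and quantile normalization gave 31 higher and 99 lower. The number of readers whose groups did not overlap ran from 2 to 5 with 1 library left out, an alternative chosen after seeing the data. The 5 came without vector control 1 (IGF2BP2 lower, with IGF2BP3, YTHDF2, YTHDF3 and YTHDC2 higher in KO), when 52.8% of all tested rows did not overlap. IGF2BP2 kept its sign and stayed uncalled in all 16 alternatives (-0.96 to -0.52). Its limma adjusted p ran from 0.0519, with robust limma and array weights, to 0.485, and was 0.406 with the replicate block. Same-numbered libraries did not deviate together from their group means (r = -0.374, -0.153 and -0.264 across rows). With 3 libraries per group a single outlying library can set these values, so they cannot settle whether the numbers pair the libraries. Signs turned for YTHDC2 with median scaling (-0.021), quantile normalization (-0.0048), the histone covariate (-0.012), and without KO 3 (-0.036), vector control 2 (-0.053) or vector control 3 (-0.024). With robust limma and array weights YTHDC1 stood at -0.0036. With 1 library left out, YTHDC1 ran from -0.21 to -0.018, YTHDC2 from -0.053 to 0.25, YTHDF1 from -0.25 to 0.035, HNRNPA2B1 from -0.41 to 0.069 and YTHDF3 from -0.025 to 1.04. Signs also turned for YTHDF1 (0.11 with robust limma and array weights, 0.035 without vector control 1), HNRNPA2B1 (0.15 with robust limma and array weights, 0.069 without KO 1) and YTHDF3 (-0.025 without vector control 3). IGF2BP1, LIN28B and HMGA2 lay below the filter and have no fitted value here.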

Other observations

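YTHDF3 had its low value in vector control 3 alone. Among the 3614 tested rows with at least 5 FPKM in each of the other 5 libraries, YTHDF3 was the 1 row at least 4-fold below the lowest of them in vector control 3. The same count was 7 in KO 1, 3 in KO 2, 1 in KO 3, 3 in vector control 1 and 3 in vector control 2, out of 3581 to 3688 rows each. The limit of 4-fold was chosen after the value was seen. At a limit of 2-fold there were 11 such rows in vector control 3, YTHDF3 among them. In the other libraries there were from 8 (KO 3) to 47 (vector control 1). The row nearest to YTHDF3 in profile was MED22, a Mediator subunit gene, at 0.20 FPKM in vector control 3, 3.01 and 2.45 FPKM in vector control 1 and 2, and 2.04 to 4.57 FPKM in the KO libraries, with a root mean square difference of 0.244.

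One of the rows nearest to IGF2BP2 in profile, ETV5;DGKG, also lies 2 protein-coding genes away from it on chromosome 3 in the gene order of GENCODE 29. It stood at 2.01, 3.55 and 3.12 FPKM in KO 1 to 3 and at 4.83, 4.56 and 4.01 FPKM in vector control 1 to 3 (log2 fold change -0.51, limma adjusted p = 0.247). TRA2B, the gene between them, was at -0.23, and SENP2, on the other side of IGF2BP2, at 0.26. Of the 12 tested rows among the 12 protein-coding genes on each side, chosen after the values were seen, 5 were below 0, with a median of 0.14, and limma called 0, beside 1.35% of all tested rows.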
